A study of Mus musculus and Mus musculus
Rattus norvegicus with 30 samples.

Results

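Whether 2 cell systems reached the same expression state after forced expression of Cdx2 was examined by setting 2 RNA-seq libraries of induced RMES cells against 4 RNA-seq libraries of induced mouse embryonic stem cells (mESCs). These were 6 of the 30 samples of the series, and they were chosen by their labels: every induced RMES library, and every mESC library induced with unmutated mouse or rat Cdx2. RMES cells are a fusion of a haploid mouse and a haploid rat embryonic stem cell, so each nucleus carries a mouse and a rat genome side by side, and the values below are for the mouse genes. Each induced group carried Flag-tagged Cdx2 under a doxycycline-inducible Tet-On promoter and was taken after 48 h of doxycycline. The induced RMES group held 1 library with the mouse protein (mCDX2) and 1 with the rat protein (rCDX2), and the induced mESC group held 2 of each. Another 4 libraries, 2 mESC WT and 2 RMES libraries labelled WT, served as the reference of each system. The labels do not say whether libraries of a group came from separate cultures, so the p-values measure the spread between these libraries, which may be technical.

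Cdx2 is a homeobox transcription factor that marks the trophectoderm, the outer layer of the blastocyst from which the placenta forms. Later in the embryo it patterns the posterior body, where it acts upstream of Hox genes, and in the adult it maintains intestinal identity. Forced Cdx2 in embryonic stem cells is known to lower the pluripotency factor Pou5f1 and to raise trophoblast genes such as keratins and Gata factors.

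Depth and the targeted gene differed between the systems. Total mouse-gene counts were 36151398 to 36267865 in induced RMES, 12967233 to 24315929 in induced mESCs, 37603181 to 41411709 in the RMES libraries labelled WT and 74960057 to 94686029 in WT mESCs. Of all pairs counted in the induced RMES libraries, 50.6 to 50.7% fell on mouse genes, against 56.1 and 56.3% in the RMES libraries labelled WT. Levels are given as CPM, that is, counts relative to the library total, scaled for library composition. Rat-gene levels are CPM of the rat-gene total without this scaling, so they are not on the same scale as mouse-gene levels. In mESCs, mouse Cdx2 was at 1.43 and 1.27 CPM in WT. After induction it was at 104 and 134 CPM in the mCDX2 libraries and at 74.6 and 69.9 CPM in the rCDX2 libraries. Pairs of mESCs were aligned to the mouse genome alone, so reads of the rat construct can count as mouse Cdx2 there. These values are therefore not on one footing with those of RMES, where pairs were divided by genome. In RMES, mouse Cdx2 was at 964 CPM in the mCDX2 library and at 4.41 CPM in the rCDX2 library, where rat Cdx2 was at 955 CPM. The RMES libraries labelled WT were not low in Cdx2: the mouse gene was at 130 and 128 CPM and the rat gene at 420 and 409 CPM. The Cdx2 level of the RMES libraries labelled WT goes against the label, so these are called "the RMES libraries labelled WT" throughout, and every direction drawn from them is a change from cells that already held Cdx2 transcripts. The part of the Cdx2 level in the differences below was not tested. RMES libraries were counted in a run of their own, so that cell system and counting run cannot be told apart. Mitochondrial genes, which were left out of all comparisons, held 0.0314% and 0.0259% of counts in induced RMES, against 1.63 to 4.03% in mESCs and 2.32 and 2.65% in the RMES libraries labelled WT.

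The induced libraries of the 2 systems stood nearer to each other than the libraries labelled WT did, but they did not coincide. The root-mean-square difference in log2 CPM over 17972 tested genes was 1.16 to 1.27 in the 8 pairs of an induced RMES and an induced mESC library, with a median of 1.23. It was 1.51 to 1.54 in the 4 pairs of libraries labelled WT. Induced mESC libraries differed among themselves by 0.588 to 0.790, and the RMES mCDX2 and rCDX2 libraries differed by 0.452, so the gap between systems was wider than any gap inside an induced group. Induced mESC libraries stood 1.54 to 1.76 from WT mESCs, and induced RMES libraries 1.90 to 1.96 from the RMES libraries labelled WT. The part of induction in these distances was not tested. These distances describe the libraries and carry no test, since pairs share libraries. In a principal component analysis, the first component held 53.4% of the variance and parted all 6 induced libraries from the 4 labelled WT, and the second held 23.7% and parted RMES from mESCs.

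**Figure D1:**
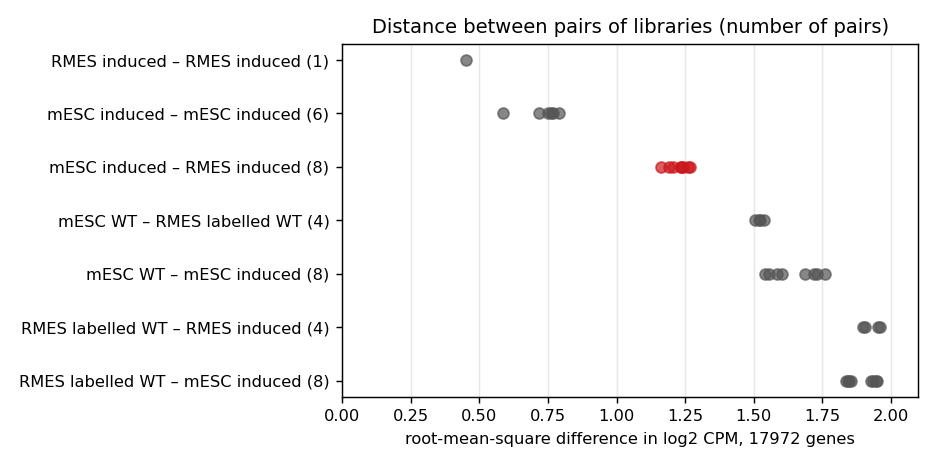
Each point is a pair of libraries, placed by the root-mean-square difference of log2 CPM over 17972 genes on the x axis, with the kind of pair and the number of pairs on the y axis. The 8 pairs of induced RMES with induced mESC libraries (red, 1.16 to 1.27) lie between the pairs inside an induced group and the 4 pairs of libraries labelled WT (1.51 to 1.54).

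Of 17972 mouse genes, 3864 (21.5%) differed between induced RMES and induced mESCs at an adjusted p under 0.05 and a fold change over 2, by the quasi-likelihood test of edgeR, adjusted by Benjamini-Hochberg, as are all adjusted p-values here. Of these, 2137 (11.9%) were higher in RMES and 1727 (9.61%) were lower. Without the fold threshold, 10175 genes (56.6%) passed, and the median size of the difference was 0.48 on the log2 scale. The 2 induced RMES values did not overlap the 4 induced mESC values for 62.7% of all genes tested, 5873 above and 5387 below.

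The same comparison between the libraries labelled WT called 5600 genes (31.2%), 2112 higher in RMES (11.8%) and 3488 lower (19.4%), and 61.6% passed without the fold threshold. It shares no library with the induced comparison. Of the 5600, 2046 (36.5%) were also called after induction, 1458 of them (71.3%) in the same direction and 588 (28.7%) in the opposite direction. Another 1818 genes, 47% of those called after induction, were called only there, which by itself does not show that the difference changed. A test of the change itself, the response in RMES minus the response in mESCs, called 5223 genes (29.1%), 3315 with a higher (18.4%) and 1908 with a lower response in RMES (10.6%), and 53% of genes passed without the fold threshold.

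The responses ran largely in the same direction. Induction called 6465 genes (36%) in mESCs, 3559 up (19.8%) and 2906 down (16.2%). It called 7644 genes (42.5%) in RMES, 4742 up (26.4%) and 2902 down (16.1%). Without the fold threshold, 71.7% of genes passed in mESCs and 73.7% in RMES. With library totals in place of composition scaling, the share of up among the called genes moved from 55.1 to 65.3% in mESCs and from 62 to 76.6% in RMES. A total of 2270 genes rose in both systems, which were 63.8% of those that rose in mESCs and 47.9% of those that rose in RMES. A total of 1434 genes fell in both, 49.3% and 49.4% of those that fell. Opposite calls were fewer: 137 genes (3.85%) that rose in mESCs fell in RMES, and 326 (11.2%) that fell in mESCs rose in RMES. Across the 17972 genes the log2 fold changes had a Pearson correlation of 0.61, a description over genes, which are not independent replicates. The 2 responses share no library. The genes that rose in both had a median log2 response of 2.09 in mESCs and 2.87 in RMES.

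**Figure D2:**
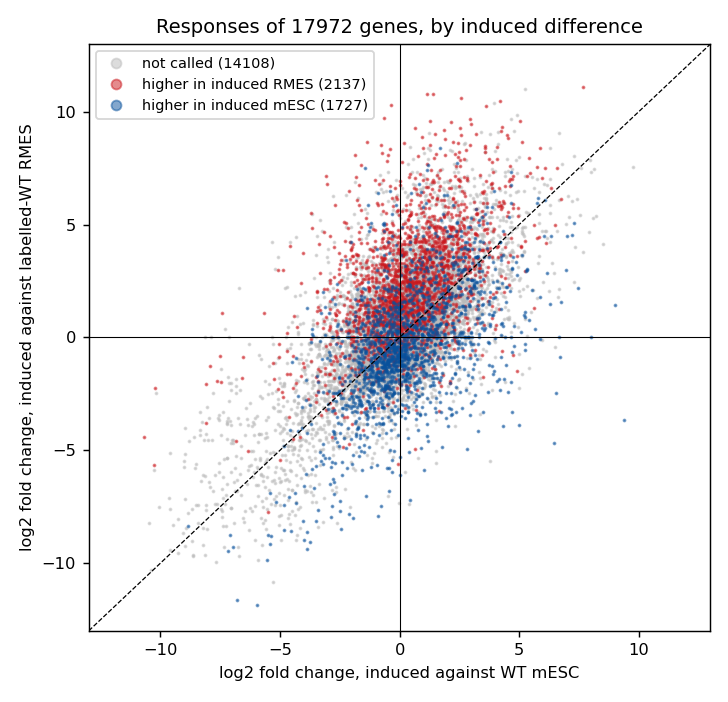
Each point is 1 of 17972 genes, placed by its log2 fold change with induction in mESCs (x axis) and in RMES against the RMES libraries labelled WT (y axis), coloured by its call in the comparison of induced RMES with induced mESCs. The dashed line marks equal responses, and the called genes lie on both sides of it, 2137 higher in induced RMES (red) and 1727 higher in induced mESCs (blue).

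Of 19 trophoblast stem cell genes, 2 were higher in induced RMES, 1 was lower and 16 were not called. The called share was 15.8%, not far from the 21.5% of all genes, with a median log2 difference of 0.25 beside 0.01 over all genes. With induction, 10 of the 19 rose and 3 fell in mESCs, beside 19.8% and 16.2% of all genes, and 11 rose and 2 fell in RMES, beside 26.4% and 16.1%. The libraries are of bulk cells, so that fewer cells of a type and less RNA per cell cannot be told apart here or in the results that follow. Krt18, a keratin of simple epithelia, was at 277 and 339 CPM in induced RMES and at 242 to 363 CPM in induced mESCs. It started from 1.31 and 1.35 CPM in the RMES libraries labelled WT and from 9.45 and 10.4 CPM in WT mESCs. The zinc finger factor Gata3 was at 12.7 and 16.1 CPM against 14.8 to 18.5 CPM, with a log2 difference of -0.19 ± 0.14 (approximate SE).

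Krt8, the partner of Krt18 in keratin filaments, was at 358 and 447 CPM in induced RMES and at 202, 179, 274 and 231 CPM in induced mESCs. All RMES values were above all mESC values, and the log2 difference of 0.86 ± 0.14 had an adjusted p of 0.000191 without reaching the fold threshold. The 3 called members of the list were Sfn, an epithelial 14-3-3 protein, Ascl2, a basic helix-loop-helix factor of the trophoblast, and Sox21. Sfn was at 118 and 125 CPM against 30.2 to 35.2 CPM (log2 difference 1.89 ± 0.07, adjusted p = 2.72e-09). Sox21 was at 1.83 and 1.87 CPM against 12.7 to 14.1 CPM (-2.85 ± 0.12, adjusted p = 5.23e-09). Elf5, a defining trophoblast stem cell factor, stayed near the floor, with 18 and 7 counts in induced RMES and 13, 1, 3 and 2 counts in induced mESCs. Eomes, another, was at 4.66 and 3.06 CPM against 3.26 to 5.28 CPM, below the 6.01 to 9.01 CPM of the libraries labelled WT.

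Among 11 tested genes of differentiated trophoblast, 5 were higher in induced RMES and none was lower, beside 11.9% and 9.61% of all genes. Hand1, which drives trophoblast giant cells, was at 6.15 and 6.26 CPM against 0.977, 1.23, 1.22 and 1.30 CPM (log2 difference 2.40 ± 0.28, adjusted p = 1.81e-05). The X-linked homeobox genes Rhox6 and Rhox9 were also higher, by 1.21 and 1.32 on the log2 scale, as counts that near-identical members of the Rhox cluster make uncertain. The imprinted noncoding RNA H19, abundant in placenta, was at 6138 and 7034 CPM in induced RMES and at 5763, 4945, 6536 and 5586 CPM in induced mESCs. These ranges overlapped, from 14.9 and 9.82 CPM in the RMES libraries labelled WT and 56.4 and 57.1 CPM in WT mESCs. Peg10, a retrotransposon-derived gene needed for the placenta, was likewise at 6694 and 7396 CPM against 5099 to 6695 CPM.

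The genes that responded most in both systems were chosen by the smaller of their 2 responses. H19 was among those that rose. Tnnt3, a fast-muscle troponin, rose from at most 3 counts in each library labelled WT to 8.84 and 8.49 CPM in RMES and 4.11 to 4.71 CPM in mESCs. Nxf7, an X-linked relative of an mRNA export factor, reached 95.9 and 103 CPM in RMES and 54.9 to 81.7 CPM in mESCs. Syn2, a synaptic vesicle protein, was called in the induced comparison, at 5.89 and 6.07 CPM against 1.30 to 1.83 CPM (1.90 ± 0.24, adjusted p = 4e-05). Fam90a1b was at 3.49 and 3.87 CPM against 4.38 to 7.33 CPM. The 6 genes that fell most in both, Vrtn, Sla2, Cd247, Gmnc, Tomt and Anxa11os, had 5 or fewer counts in every induced library of either system.

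Of 20 genes of core and naive pluripotency, 9 fell and none rose in mESCs, and 14 fell and 1 rose in RMES, beside 16.2% and 16.1% of all genes that fell. In the induced comparison, 4 were lower in RMES, 1 was higher and 15 were not called, so the called share of 25% was near the 21.5% of all genes. Pou5f1, the central pluripotency factor, was at 408 and 365 CPM in induced RMES and at 558, 562, 530 and 522 CPM in induced mESCs, down from 1945 and 1958 CPM and from 1547 and 1548 CPM. All RMES values were below all mESC values (-0.49 ± 0.06, adjusted p = 3.8e-05), short of the fold threshold. Nanog was at 466 and 483 CPM against 750 to 984 CPM (-0.87 ± 0.09), and Sox2 at 169 and 162 CPM against 215 to 277 CPM (-0.56 ± 0.09).

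The 4 lower genes were Nr0b1, Fgf4, Dppa3 and Dppa5a, and the higher one was Utf1. Nr0b1, a nuclear receptor of naive cells, was at 10.6 and 8.11 CPM against 28.0 to 32.3 CPM (-1.68 ± 0.11, adjusted p = 1.4e-07). Fgf4, the growth factor that stem cells send to trophoblast, was at 75.3 and 87.5 CPM against 185 to 197 CPM (-1.23 ± 0.07). It also differed between the libraries labelled WT, at 100.2 and 98.1 CPM against 227 and 235 CPM (-1.22 ± 0.08), and the difference between its responses was -0.01 ± 0.10.

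**Figure D3:**
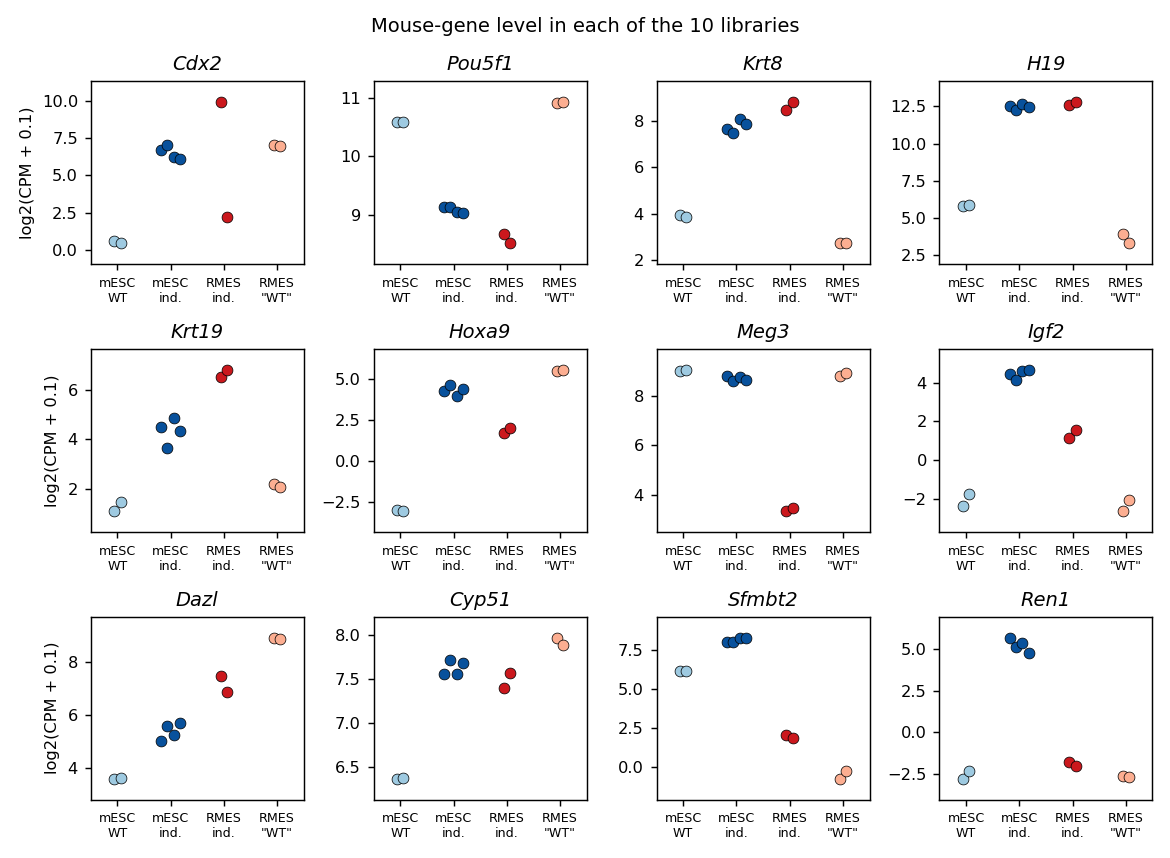
Each panel shows the log2(CPM + 0.1) of 1 mouse gene (y axis) in each of the 10 libraries, grouped on the x axis as WT mESC, induced (ind.) mESC, induced RMES and RMES labelled WT. The induced ranges of H19 and Cyp51 overlapped between the systems, those of Hoxa9, Meg3, Igf2, Sfmbt2 and Ren1 lay far apart, and the 2 induced RMES points for Cdx2 are the mCDX2 and rCDX2 libraries.

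The Hoxa cluster gave the largest opposite responses. Hox genes encode homeobox factors that set position along the body axis, and those of the Hoxa cluster lie side by side on mouse chromosome 6. Hoxa9 (mm10 chr6:52223100-52231089, minus strand) was at 0.0299 and 0.0240 CPM in WT mESCs, which is 2 counts in each, and at 19.4, 24.8, 15.6 and 21.1 CPM in induced mESCs. In RMES it was at 44.4 and 47.3 CPM in the libraries labelled WT and at 3.25 and 3.91 CPM after induction. The gene thus rose from near the floor in mESCs and fell in RMES (-3.68 ± 0.18, adjusted p = 6.74e-09), and the induced systems ended 2.48 ± 0.17 apart on the log2 scale, higher in mESCs (adjusted p = 2.63e-07).

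Hoxa10 (chr6:52231197-52240854, minus strand) was at 0.808 and 1.04 CPM in induced RMES and at 7.37, 9.24, 5.75 and 7.64 CPM in induced mESCs, from 24.7 and 22.7 CPM and from 0.104 and 0.0601 CPM. Hoxa7 (chr6:52214491-52221854, minus strand) was at 5.70 and 3.56 CPM against 15.4, 17.2, 11.6 and 12.8 CPM, from 67.0 and 73.9 CPM and from 0.731 and 0.685 CPM. Neither gene's groups overlapped, and both rose in mESCs and fell in RMES. The difference between the responses was -11.15 ± 0.36 for Hoxa10 (adjusted p = 1.67e-09) and -8.25 ± 0.31 for Hoxa7 (adjusted p = 4.44e-09).

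Over the whole cluster, 9 of 11 tested Hoxa genes were lower in induced RMES and none was higher, beside 9.61% and 11.9% of all genes. With all 18 induced mESC libraries of the series, 7 Cdx2 mutants included, 5 of 10 were lower. All 11 were called with a lower response in RMES, beside 10.6% of all genes. The summed level of the 11 was 18.99 to 20.59 CPM in induced RMES and 59.5 to 83.5 CPM in induced mESCs, from 151 to 160 CPM and from 4.15 to 4.34 CPM. The other clusters were counted in the same way. Of 9 Hoxb genes, 5 were higher in induced RMES and 1 was lower, with Hoxb9 at 20.5 and 18.1 CPM against 7.73 to 9.71 CPM (1.16 ± 0.11, adjusted p = 2.44e-06). Of 9 Hoxc genes, 3 were higher and none lower, and of 8 Hoxd genes, 3 were lower and none higher. Against WT mESCs, 10 Hoxa, 7 Hoxb, 9 Hoxc and 3 Hoxd genes were higher in the RMES libraries labelled WT, beside 11.8% of all genes, and 8 Hoxb, 9 Hoxc and 5 Hoxd genes had a lower response in RMES. Counts of neighbouring, related Hox genes can share reads and are uncertain to that degree.

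Cdx2 ChIP-seq peaks, which the authors called on merged mCDX2 and rCDX2 reads of each system, lay within 5 kb of the start of Hoxa7, Hoxa9 and Hoxa10 in both systems. RefSeq promoters, taken as 250 bases before and 50 after the start, were found for 27 of the 35 genes named for the size of a difference or response. For 2 of these genes, Hoxa10 (at 1 of its 2 promoters) and Hoxa7, a promoter overlapped a peak of both systems. These are shown because both genes responded in opposite directions (GRCm38.p6, minus strand, 5′ to 3′). Capitals mark TTTAT or its complement ATAAA, a core of the sequence Cdx2 is known to bind, searched on both strands. This core stood in 26.5% of 16092 RefSeq promoters of this length, and its presence is a description of the letters alone.

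Hoxa10 chr6:52240805-52241104: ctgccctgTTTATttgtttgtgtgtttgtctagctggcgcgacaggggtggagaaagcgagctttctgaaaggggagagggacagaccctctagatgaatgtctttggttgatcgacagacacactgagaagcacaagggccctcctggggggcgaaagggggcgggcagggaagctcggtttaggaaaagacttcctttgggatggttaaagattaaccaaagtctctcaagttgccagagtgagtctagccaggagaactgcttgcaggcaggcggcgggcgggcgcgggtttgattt

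Hoxa7 chr6:52218524-52218823: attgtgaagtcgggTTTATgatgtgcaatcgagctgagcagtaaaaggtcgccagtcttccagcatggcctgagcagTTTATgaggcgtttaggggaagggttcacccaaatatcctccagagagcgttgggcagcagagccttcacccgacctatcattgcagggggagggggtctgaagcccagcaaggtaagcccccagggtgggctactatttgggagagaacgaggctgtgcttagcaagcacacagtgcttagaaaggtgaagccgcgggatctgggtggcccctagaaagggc

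The Hoxa10 promoter held 1 match to the core and the Hoxa7 promoter 2 matches, and both lay under a peak in each system.

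The largest differences between the induced states mostly had a counterpart between the libraries labelled WT. By size, 6 genes in each direction were taken from those called with values that did not overlap. Of these 12, 11 were also called, in the same direction, between the libraries labelled WT. Among all 3864 genes called between the induced systems, 1458 were called in the same direction there, and 47% were called only after induction. Sfmbt2 (chr2:10370510-10595253), an imprinted Polycomb gene of the trophoblast, was at 3.99 and 3.46 CPM in induced RMES and at 260, 261, 311 and 314 CPM in induced mESCs (-6.26 ± 0.14, adjusted p = 4.73e-11). In the libraries labelled WT it was at 0.498 and 0.734 CPM against 72.0 and 71.0 CPM, so it rose in both systems, by 2.58 ± 0.21 in RMES and 2.00 ± 0.10 in mESCs on the log2 scale. The difference between these responses was 0.58 ± 0.25 (adjusted p = 0.0704). The rat Sfmbt2 in the same induced RMES libraries was at 71.9 and 81.9 CPM of rat-gene counts.

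Tmem267, a transmembrane protein gene, differed in the other direction, at 11.8 and 11.3 CPM against 0.122 to 0.459 CPM after induction and at 17.0 and 17.9 CPM against 0.343 and 0.361 CPM in the libraries labelled WT. The difference between its responses was 0.02 ± 0.28. Hkdc1, a hexokinase relative, was at 10.6 and 10.2 CPM against 0 to 0.204 CPM (6.25 ± 0.24, adjusted p = 2.65e-09), and at 31.4 and 31.9 CPM in the RMES libraries labelled WT. Slc15a2, a peptide transporter, was at 0.190 and 0.0711 CPM, or 8 and 3 counts, against 34.2 to 43.0 CPM (-8.22 ± 0.24, adjusted p = 5.66e-10), and at 3 and 1 counts against 464 and 543 counts in the libraries labelled WT. These 4 genes therefore carried the same direction in libraries other than the induced ones. The RMES libraries of both comparisons shared the cell system, the counting run and the assignment of pairs to a genome. The repeat is not independent of these, and their part was not tested.

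Ren1, which encodes renin, differed in another way. It was near the floor in all 4 libraries labelled WT, with 2 and 2 counts in RMES and 3 and 8 in mESCs. It stayed at 0.190 and 0.142 CPM in induced RMES and reached 51.5, 35.7, 41.7 and 27.5 CPM in induced mESCs (-7.86 ± 0.35, adjusted p = 9.22e-09). Clvs1, a clathrin-associated lipid-binding protein gene, rose in RMES and fell in mESCs, ending at 5.13 and 4.67 CPM against 0.0407 to 0.178 CPM. Krt23, an epithelial keratin, fell from 39.2 and 39.0 CPM in the RMES libraries labelled WT to 9 and 6 counts. It had 0 counts in all 4 induced mESC libraries. With so few counts after induction, the size of its difference between the induced systems is uncertain. Its call was lost when the induced mESC libraries with mutant Cdx2 were added.

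The remaining genes of this group were Mageb4 and Nlrp4c on the higher side and Fam25c, Zscan4b and Platr13 on the lower. Mageb4, an X-linked germline gene, was at 31.1 and 23.1 CPM against 0 to 0.229 CPM, and Nlrp4c, an oocyte gene, at 57.5 and 46.0 CPM against 0.547 to 1.26 CPM. Zscan4b, of the Zscan4 family of early embryos, had 2 and 5 counts against 132 to 156 counts, and the noncoding Platr13 had 1 and 0 counts against 19 to 42. Fam25c was at 0.142 CPM in each against 21.4, 7.87, 19.1 and 6.65 CPM. Mageb4, Nlrp4c, Zscan4b and Fam90a1b have near-identical relatives among which reads can be split, so their values are uncertain.

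The 6 genes whose response was higher in RMES by the most were all near the floor in the RMES libraries labelled WT. Stra8, a retinoic acid target that starts meiosis, had 2 and 0 counts there and reached 5.46 and 6.38 CPM with induction. In mESCs it fell from 62.3 and 60.7 CPM to 20.0, 15.7, 31.2 and 22.6 CPM, so that induced RMES remained lower (-1.93 ± 0.23, adjusted p = 1.94e-05). Map7d3, a microtubule-associated protein gene, went from 1 count in each to 3.11 and 4.17 CPM in RMES and from 4.82 and 5.46 CPM down to 0.355 to 0.841 CPM in mESCs.

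Ankrd1, a muscle ankyrin-repeat gene, and Slc22a18, an imprinted transporter gene, had 0 counts in both RMES libraries labelled WT and ended at 4.88 to 6.67 CPM and 5.12 to 6.51 CPM in induced RMES. Induced mESCs held 0.535 to 1.23 CPM and 1.64 to 2.61 CPM of them. Evc, a cilium gene, and Cd74, the invariant chain of antigen presentation, rose in RMES from 2 counts or fewer, to 2.14 and 2.23 CPM and to 11.4 and 16.03 CPM. On the other side, Cd3g, a T-cell receptor subunit, rose in mESCs from 0.164 and 0.228 CPM to 19.5 to 23.5 CPM, while in RMES it was at 18.8 and 16.9 CPM in the libraries labelled WT and at 10.5 and 8.75 CPM in the induced ones. Khdc1c, an oocyte gene with near-identical relatives, fell in RMES from 20.9 and 20.4 CPM to 3 and 7 counts and had 0 to 7 counts in induced mESCs.

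Imprinted genes separated the induced states at the Dlk1-Meg3 domain. The maternally expressed noncoding RNAs Meg3, Rian and Mirg lie together on chromosome 12 (mm10 109541001 to 109749460). Meg3 was at 10.2 and 11.2 CPM in induced RMES and at 439, 391, 429 and 396 CPM in induced mESCs (-5.27 ± 0.10, adjusted p = 1.43e-11). It was at 439 and 490 CPM in the RMES libraries labelled WT and at 511 and 526 CPM in WT mESCs, so the induced RMES libraries were low against all others, and the responses differed (-5.11 ± 0.12, adjusted p = 2.76e-10). Rian (-5.66 ± 0.10) and Mirg (-5.46 ± 0.18) had the same pattern, at 8.10 and 8.25 CPM against 378 to 450 CPM and at 0.760 and 1.38 CPM against 44.5 to 50.0 CPM.

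Of 12 tested genes whose paternal copy is silent, 4 were lower in induced RMES and 2 were higher, and of 16 whose maternal copy is silent, 3 were lower and 3 were higher, beside 9.61% lower and 11.9% higher of all genes. Grb10, a growth inhibitor, was at 9.71 and 8.42 CPM against 60.8 to 77.1 CPM (-2.94 ± 0.12, adjusted p = 4.13e-09). Igf2, the fetal growth factor next to H19, was at 2.11 and 2.87 CPM against 17.3 to 25.0 CPM (-3.14 ± 0.21, adjusted p = 1.64e-07), although H19 itself overlapped between the systems. Nnat, a maternally silenced gene of the endoplasmic reticulum, was higher, at 33.6 and 40.0 CPM against 2.52 to 3.46 CPM (3.55 ± 0.14, adjusted p = 2.55e-09).

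Genes of the X chromosome and of chromosome 16 differed from the rest in their medians. For 634 X-linked genes the median log2 difference between induced RMES and induced mESCs was 0.55, and 179 were called higher and 33 lower, or 33.4% beside 21.5% of all genes. The median was 0.84 between the libraries labelled WT. Xist, the noncoding RNA that silences an X chromosome, was at 2.04 and 2.40 CPM in induced RMES and at 79.0, 101, 73.8 and 106 CPM in induced mESCs (-5.33 ± 0.19, adjusted p = 1.64e-09). In the libraries labelled WT, Xist was at 3.87 to 4.95 CPM in both systems, and none of the other 4 tested genes of the X inactivation centre was called between the induced systems. For 507 genes of chromosome 16 the median was -0.26 between the induced libraries and 0.59 between those labelled WT, and their median response in RMES was -0.75 against 0.12 in mESCs. Without both chromosomes, the induced system difference called 3550 genes. The number of copies of these chromosomes per cell was not tested.

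**Figure D4:**
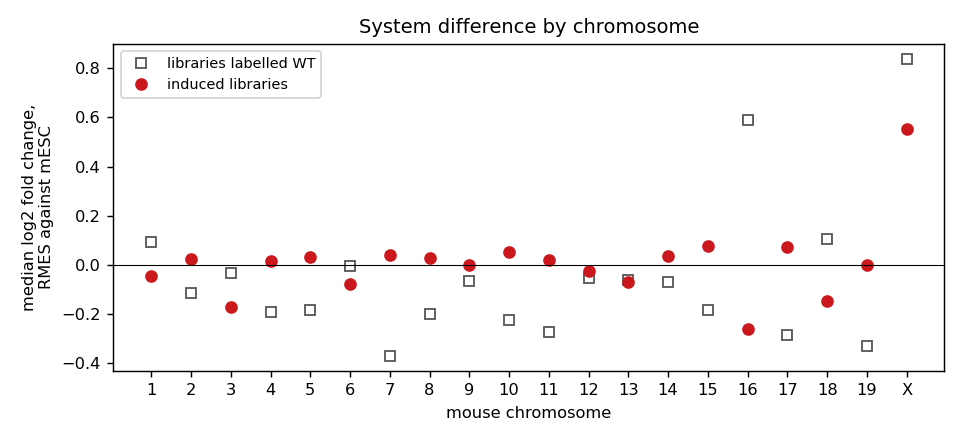
Each mouse chromosome (x axis) is shown by the median log2 fold change of its tested genes, RMES against mESC (y axis), in the libraries labelled WT (open squares) and in the induced libraries (red points). The X chromosome is highest in both, at 0.84 and 0.55, and chromosome 16 passes from 0.59 to -0.26.

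Germline genes that DNA methylation keeps silent in somatic cells were mostly higher in induced RMES. Of 16 such genes, 11 were higher and 2 were lower, beside 11.9% and 9.61% of all genes, with a median of 1.44. Between the libraries labelled WT, 8 were higher and 2 lower, beside 11.8% and 19.4% of all genes, with a median of 1.45. With mouse and rat counts added in RMES, 6 of the 16 were higher and 1 was lower. Dazl, an RNA-binding protein of germ cells, was at 181 and 117 CPM in induced RMES and at 33.1, 48.2, 37.9 and 52.2 CPM in induced mESCs (1.81 ± 0.17, adjusted p = 3.28e-06). It rose in mESCs, from 12.2 and 12.3 CPM, and fell in RMES, from 484 and 469 CPM, and these responses differed (-3.47 ± 0.28, adjusted p = 1.02e-06). Slc25a31, an ADP/ATP carrier of sperm, was at 33.6 and 29.4 CPM against 2.201 to 3.832 CPM (3.39 ± 0.16, adjusted p = 1.2e-08), and Asz1, of the piRNA pathway, at 5.30 and 3.82 CPM against 0.0764 to 0.479 CPM. None of the 8 tested genes for DNA methylation enzymes was called between the induced systems by edgeR or DESeq2, beside 21.5% of all genes by edgeR. At a smaller fold, 6 of the 8 passed an adjusted p under 0.05 by edgeR, beside 56.6% of all genes at any fold.

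Of 20 genes of cholesterol synthesis and uptake, none was called between the induced systems by edgeR or DESeq2, beside 21.5% of all genes by edgeR. Their median was -0.12. By edgeR, 13 had an unadjusted p under 0.05 at a fold change below 2. At an adjusted p under 0.05, 11 passed, beside 56.6% of all genes at any fold. Between the libraries labelled WT, 6 were higher in RMES and none was lower, beside 11.8% and 19.4% of all genes. Induction raised 10 of them in mESCs, beside 19.8% of all genes. It called none in RMES by either tool, beside 42.5% of all genes by edgeR. In RMES, 13 had an unadjusted p under 0.05 by edgeR, and 12 passed at an adjusted p under 0.05, beside 73.7% of all genes at any fold. A lower response in RMES was called for 12, beside 10.6% of all genes. Cyp51, a sterol demethylase, was at 169 and 190 CPM in induced RMES and at 189, 210, 188 and 206 CPM in induced mESCs, from 251 and 237 CPM and from 82.5 and 82.8 CPM. Its induced ranges overlapped, and the log2 difference was -0.14 ± 0.07.

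Further lists of differentiation and signalling genes are given by their counts, each to be read beside the 9.61% of all genes that were lower and the 11.9% that were higher in induced RMES. Of 14 retinoic acid genes, 6 were lower and none higher. Between the libraries labelled WT, 9 of them were lower and none higher, beside 19.4% and 11.8% of all genes. Rarb, a retinoic acid receptor and target, was at 2.45 and 2.42 CPM against 8.17 to 11.8 CPM (-2.02 ± 0.18, adjusted p = 2.21e-06), and Cyp26a1, which degrades retinoic acid, at 0.285 and 0.237 CPM against 1.44 to 2.57 CPM. Of 10 tested genes of intestinal epithelium, 5 were higher and 2 lower (70% called, beside 21.5%). Krt19, a keratin also made by trophoblast, was at 92.9 and 112 CPM against 22.6, 12.6, 29.3 and 20.0 CPM (2.26 ± 0.21, adjusted p = 2.66e-06), and Heph, an iron oxidase, at 10.8 and 10.5 CPM against 1.37 to 1.59 CPM (2.88 ± 0.18).

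Of 14 tested genes of the formative and primed epiblast, 6 were lower and none higher, beside 9.61% and 11.9% of all genes. Between the libraries labelled WT, 6 were lower and 2 higher, beside 19.4% and 11.8%. Otx2, a transcription factor of this state, had 1 and 4 counts in induced RMES and 56 to 101 counts in induced mESCs. Of 15 tested primitive endoderm genes, 4 were lower and none higher, and 7 were lower and 3 higher between the libraries labelled WT. In the induced libraries, Gata6 was at 2.304 and 2.419 CPM against 5.11 to 7.66 CPM (-1.44 ± 0.22, adjusted p = 0.000134). The endocytic adaptor Dab2 was at 4.63 and 4.08 CPM against 13.9 to 19.8 CPM. Of 19 tested genes of primitive streak and posterior mesoderm, 5 were higher and 4 lower. Among 11 Wnt feedback genes, 4 were higher and 1 was lower. The lower gene was Dkk1, a secreted Wnt inhibitor, at 0.214 and 0.427 CPM against 7.01 to 9.24 CPM (-4.61 ± 0.27, adjusted p = 6.77e-08). It rose in mESCs (4.25 ± 0.24), whereas its value in RMES was 0.11 ± 0.41, and the responses differed (-4.14 ± 0.51, adjusted p = 2.97e-05).

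The remaining lists are read beside the same shares of all genes. Among 11 feedback genes of fibroblast growth factor signalling, 3 were higher and 1 was lower. Among 20 genes of glycolysis and hypoxia, 4 were higher and none lower. None of 12 p53 target genes was called by edgeR or DESeq2. At a smaller fold, 11 of them passed an adjusted p under 0.05 by edgeR, beside 56.6% of all genes at any fold. Of 80 genes for cytosolic ribosomal proteins, 21 were lower and none higher, with a median of -0.61. That count was 13 lower and 1 higher with library totals in place of composition scaling, and 27 lower with mESC libraries of the first counting run alone but 9 lower with those of the second. Of 94 nuclear genes for respiratory chain complexes, 11 were lower and 2 higher, a called share of 13.8%, below the 21.5% of all genes. Markers of other cell types were also counted: of 7 tested fibroblast genes 3 were higher and none lower, with a summed level of 18.7 to 23.5 CPM in induced RMES and 17.0 to 21.1 CPM in induced mESCs, and of 7 tested neural genes 2 were higher and 3 lower, at 113 to 116 CPM and 57.3 to 77.0 CPM. The part of such cells in the results was not tested.

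**Figure D5:**
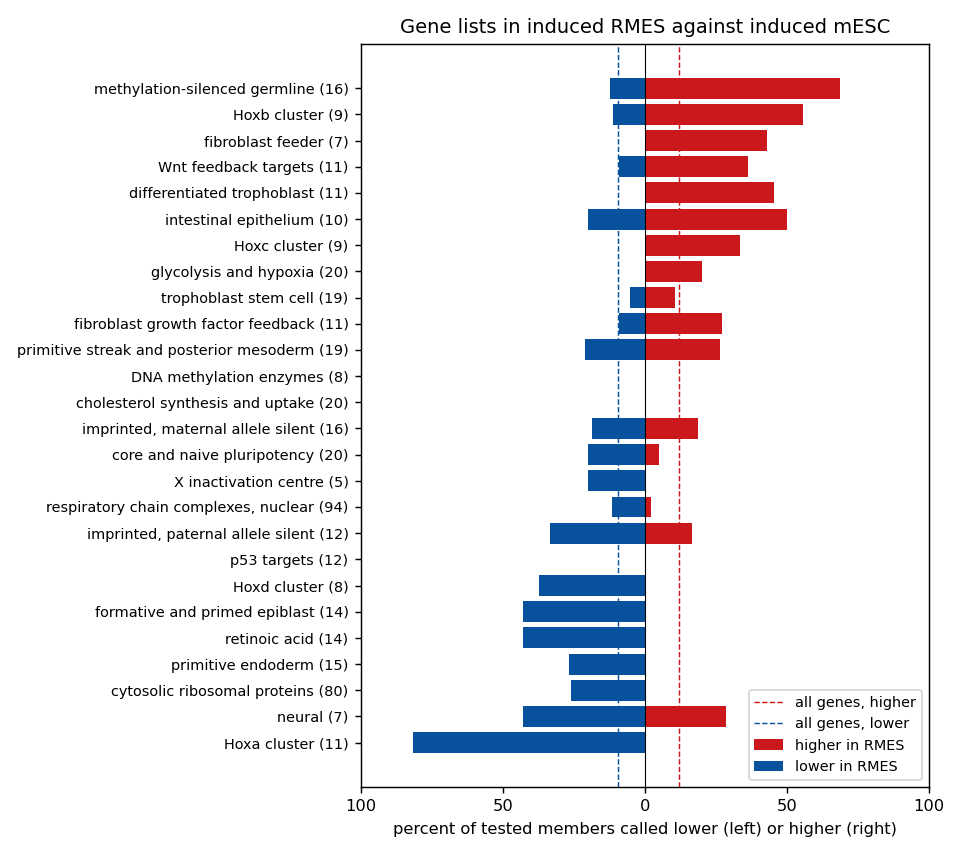
For each gene list (y axis, number of tested genes in parentheses), bars give the percent of its genes called higher (red, right) or lower (blue, left) in induced RMES than in induced mESCs, ordered by median log2 difference. Dashed lines mark 11.9% and 9.61%, the same over all 17972 genes, and the germline and Hoxa lists stand at the 2 ends.

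Cdx2 peaks near genes were then counted by class, a readout that played no part in choosing the libraries. Within 30 kb of the start, 76.4% of 17704 tested genes with a position had a peak of the mESC set. For the RMES set this was 65.3%, and the sets held 91665 and 74650 peaks. The sets were called separately, and the RMES set rests on reads assigned to the mouse genome. Per the study, more ChIP-seq read pairs were obtained for RMES than for mESCs, and the RMES pairs were divided between the mouse and rat genomes. The names of the sets carry different filter marks. The part of depth and filter in the shares was not tested, so a gap between the shares of the sets is not taken as a difference in binding. Among genes that rose in both systems, the shares were 72.8% and 64.4%, and among genes that fell in both, 77.1% and 63.1%. Genes higher in induced RMES had a peak in 65.3% and 58.7%, and genes higher in induced mESCs in 78% and 65.5%. Genes called in no comparison had the highest shares, 79.8% and 69.5%. Within 5 kb, genes higher in induced RMES had peaks in 19% and 14.6%, beside 28.7% and 21% of all tested genes. Genes higher in induced RMES thus had smaller shares with a peak of either set than all genes had, and these shares are given with no test. Of the genes described above, those with a peak within 30 kb in the mESC set only included Ren1, Xist, Grb10, Cd3g, Map7d3, Ankrd1 and Cd74. Those with such a peak in the RMES set only included Dkk1, Igf2, Tmem267, Mageb4 and Nlrp4c. Either group held genes that were higher and genes that were lower in induced RMES. These absences from a set carry the same limit as the shares. Meg3 and Krt8 had a peak within 5 kb in both sets.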

How the data were processed

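RNA-seq was analysed in 10 libraries as read counts per mouse gene that the authors deposited without normalisation. Per the labels and the study's methods, the authors aligned stranded read pairs with STAR 2.7.0d (submitters' processing notes) to mm10, for RMES also to rn6 with each pair assigned to a genome by edit distance, and counted by strand with featureCounts. Such counts do not resolve pairs that match both genomes equally or reads of near-identical genes. The second mESC replicates were counted in a run of their own. Peak positions, called by the authors with MACS2 on merged reads, were used without their scores. The study's other libraries entered only the alternatives.

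Tables were joined on gene symbol (19919 genes), and 29 mitochondrial genes and Cdx2 were left out. Counts were fitted in 1 model of 4 arms (cell system by induction) with edgeR 4.0.16 in R 4.3.3: TMM, filterByExpr (17972 genes tested), the quasi-likelihood test and Benjamini-Hochberg adjustment. A gene was called at an adjusted p under 0.05 and a fold change over 2. As in the study, mCDX2 and rCDX2 libraries of RMES served as replicates. SE is the absolute log2 fold change over the square root of its F statistic. It is approximate and can be too small for genes with few counts. A gene with at most 3 counts in each library of an arm is given by its counts. Pairs of libraries within an arm differed by 2.41 to 9.2 times the counting variance, so none was a duplicate. Induced mESC libraries differed by 3.00 and 2.53 times it within a counting run, and by 6.75 to 9.2 times it between runs. The main fit held no term for the run. Scripts were tested on simulated data. Figures were drawn with Python 3.11.15.

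Named genes had a mean of at least 50 counts and were the 6 with the highest and the 6 with the lowest value: called system differences without overlap after induction, called response differences, and the smaller response among genes called in the same direction in both systems. Members of fixed gene lists and Cdx2 were also named. A gene that this rule names is not reported here. The comparison and the lists were chosen with earlier results of these data known. Alternatives covered normalisation, filter, fold threshold, DESeq2 1.42.0, replicate block, construct, depth, added rat counts and left-out libraries. Those by counting run and without chromosomes 16 and X were chosen after the data were seen.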

Additional observations from a re-analysis of the deposited data

Results flagged for a closer look

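The responses to Cdx2 differed between the 2 systems by the test of the difference itself for 5223 of the tested genes (29.1%), by the quasi-likelihood test of edgeR, adjusted by Benjamini-Hochberg. The 6 genes with the largest excess of the RMES response were Map7d3 (9.83 on the log2 scale), Slc22a18 (9.62), Ankrd1 (9.37), Evc (9.21), Stra8 (8.94) and Cd74 (8.89). The 6 with the largest excess of the mESC response were Hoxa9 (-13.06), Hoxa10 (-11.15), Hoxa7 (-8.25), Khdc1c (-7.78), Cd3g (-7.60) and Ren1 (-7.57). The first 6 genes had at most 2 counts in each RMES library labelled WT, Ren1 had 2 counts in each of them, and Hoxa9 had 2 counts in each WT mESC library, so the fitted sizes for these 8 genes depend on the prior count and are no bounds. Every one of these differences rests on RMES libraries that carry the label WT but hold Cdx2 transcripts.

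Rat Cdx2, which is in a table outside the comparison of mouse genes, was at 420 and 409 CPM of rat-gene counts in the 2 RMES libraries labelled WT, from 12384 and 13178 counts. It was at 50.2 CPM in the RMES mCDX2 library and at 955 CPM in the RMES rCDX2 library.

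None of the 35 genes named for their size had 1 of its 4 induced mESC values far from the other 3 by Dixon's test at the 95% level.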

How the results depend on the processing

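Where the induced system difference called 3864 genes, 2191 were called with a mean of at least 50 counts, 10175 with no fold threshold and 1523 at a fold change over 4. For the uninduced system difference (5600) these were 3595, 11074 and 2704, for the response in mESC (6465) 3927, 12890 and 2936, and for the response in RMES (7644) 4703, 13246 and 4210. The response difference (5223) went to 9531 with no fold threshold and 2797 at a fold change over 4. The looser and stricter rules differ by construction. With all 18 induced mESC libraries, 7 mutants included, the response in mESC called 4250 genes, and the cause was not tested. The distance between libraries labelled WT was 1.503 without X-linked and imprinted genes. Peak shares within 5 kb were 19% and 14.6% for genes higher in induced RMES and 29.3% and 19.8% for genes higher in induced mESCs, against 65.3, 58.7, 78 and 65.5% within 30 kb.

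Leaving out each library in turn gave 3329 to 3851 genes for the induced system difference, 5034 to 5638 for the uninduced system difference, 6218 to 6635 for the response in mESC, 7129 to 7833 for the response in RMES and 4722 to 5214 for the response difference. Where this left an arm with 1 library, that library was assumed to vary like those of the other arms, so these ranges are no test of stability. DESeq2 called 3777, 5471, 6572, 7710 and 5158 genes. Same-numbered mESC libraries shared a counting run, but with 2 numbers the labels do not pair them; with a replicate block for the second run, the counts were 3887, 5629, 6509, 7686 and 5309. With the mESC libraries of the first run alone the induced system difference called 3924 genes, and with the second alone 3669. No named gene reversed, and 1 lost its call: Krt23, with all 18 induced mESC libraries (log2 1.04, adjusted p = 0.295). Library totals in place of composition scaling moved the median log2 value of all genes from 0.01 to 0.17 for the induced system difference, from -0.02 to 0.19 for the response in mESC, from 0.06 to 0.47 for the response in RMES and from 0.07 to 0.27 for the response difference. The share of higher calls in the induced system difference then moved from 55.3 to 65%.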
